A study of Mus musculus with 20 samples.

Results

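The transcripts of 10 genes of the endoplasmic reticulum (ER) folding machinery, Hspa5, Hsp90b1, Calr, Dnajb11, Sdf2l1, Pdia3, Pdia4, Pdia6, Creld2 and Manf, were followed in microglia of mThy1-α-synuclein mice and wild-type (WT) controls. They were taken by gene symbol from a matrix of 24062 genes, and all 10 were found and passed the filter on low values at both ages. The 10 genes and the gene lists below were chosen with earlier results of these data known. RNA was sequenced from the microglial fraction of 20 male mice, each library from the whole brain of 1 mouse. The 4 groups were 6 hemizygous transgenic and 4 WT mice at 7 months, and 5 transgenic and 5 WT mice at 10 months, all on the B6D2F1/J background. The transgene is full-length human wild-type α-synuclein driven by the murine Thy1 promoter, which is mainly active in neurons, and is carried on the X chromosome. The controls were WT littermates, and the sources used here name no allele or treatment that all groups share. Microglia were taken by magnetic beads, named IBA1 beads in the sample descriptions and CD11b beads in the study's methods. All libraries were sequenced in 1 run. The mice were handled age by age up to nucleic acid isolation, both genotypes together, so age and handling cannot be told apart.

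Secretory and membrane proteins fold in the ER, where chaperones hold nascent chains and disulfide isomerases form and rearrange their disulfide bonds. When unfolded proteins accumulate, the sensors Ire1, Perk and Atf6 start the unfolded protein response, and the transcription factors Xbp1 and Atf6 raise the chaperone genes through promoter sequences called ER stress elements. Microglia secrete cytokines, complement and lysosomal enzymes and therefore run many proteins through this compartment. Hspa5 encodes BiP, the Hsp70 of the ER, whose expression is the usual readout of this response.

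The libraries held between 33404096 and 77806399 reads on genes. Thy1, whose promoter drives the transgene, was between 392 and 1741 normalized counts in the 11 transgenic mice and between 9.41 and 47.6 in the 9 WT mice, so the genotypes were apart in every mouse. The 12 microglia markers were all detected and summed to between 1831310 and 2416512 normalized counts per mouse. A WT mouse of 10 months, replicate 1, stood apart, with the highest value of its group for 10 of 10 genes described here. Results at 10 months are therefore also given without this mouse. Its library was not unusual in depth, at 45676050 reads, and 2 of its group mates had more. This mouse also had the highest sum of its group for each of the 6 further lists of ER genes below. The same held for the cytosolic heat shock list and the border macrophage markers. Its sums of neuron, astrocyte, endothelial, and lymphocyte and plasma cell markers were the lowest of the group.

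In GRCm38 the genes lie apart from each other, on chromosomes 2 (Hspa5, chr2:34772090-34776529, and Pdia3, chr2:121413902-121438687), 6 (Pdia4, chr6:47796141-47813512), 8 (Calr, chr8:84842088-84846931), 9 (Manf, chr9:106888753-106891938), 10 (Hsp90b1, chr10:86690841-86705444), 12 (Pdia6, chr12:17266589-17284785), 15 (Creld2, chr15:88819646-88826681) and 16 (Sdf2l1, chr16:17130138-17132383, and Dnajb11, chr16:22857845-22879634). Several of their promoters carry a sequence that few other promoters hold. Windows from 250 bases before to 50 bases after each RefSeq transcript start (GRCm38.p6) were searched on both strands for the ER stress element (ERSE: CCAAT, then 9 bases of any kind, then CCACG), which was present in 5 of the 9 genes that have a window. Of all 32851 windows, 39 held it (0.119%), which is 37 of 27025 genes (0.137%). The sites are shown because the genes that carry them can then be followed through the results, with the element in capitals, read 5′ to 3′ on the strand that carries it, and 5 flanking bases on each side.
Hspa5, gene strand, chr2:34772020-34772048: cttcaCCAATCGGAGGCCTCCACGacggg
Hsp90b1, gene strand, chr10:86705633-86705661: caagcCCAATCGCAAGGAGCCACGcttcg
Hsp90b1, opposite strand, chr10:86705528-86705556: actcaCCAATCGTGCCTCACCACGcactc
Calr, opposite strand, chr8:84847070-84847098: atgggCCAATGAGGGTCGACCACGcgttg
Pdia6, gene strand, chr12:17266486-17266514: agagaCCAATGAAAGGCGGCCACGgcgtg
Creld2, opposite strand, chr15:88819515-88819543: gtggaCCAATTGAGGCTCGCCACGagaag

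Hsp90b1 was the only one of these genes with a pair of elements, facing each other. The stretch that spans both, from base -217 to base -84 relative to the transcript start (chr10:86705528-86705661, minus strand, 134 bases), is shown on the gene strand with both elements in capitals, the second reading as its reverse complement.
Hsp90b1: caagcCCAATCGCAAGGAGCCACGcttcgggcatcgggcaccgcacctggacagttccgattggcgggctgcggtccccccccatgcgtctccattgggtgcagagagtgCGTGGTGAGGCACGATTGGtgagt
Counted with the start as base 0, the most upstream base of the element was base -65 in Hspa5, -98 in Pdia6, -126 in Creld2 and -162 in Calr. Dnajb11 held the related ERSE-II (ATTGG, 1 base of any kind, CCACG), a sequence in 12 of 32851 windows (0.0365%), beginning at base 8 (chr16:22857847-22857867, gene strand).
Dnajb11: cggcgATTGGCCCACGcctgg
Another sequence, the unfolded protein response element core (TGACGTGG), occurred in 222 windows (0.676%) and in none of the 9 genes. Pdia3, Pdia4 and Sdf2l1 had no match to the 3 sequences in their windows. Manf had no window and was not searched. These are matches of letters, not binding sites.

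**Figure D1:**
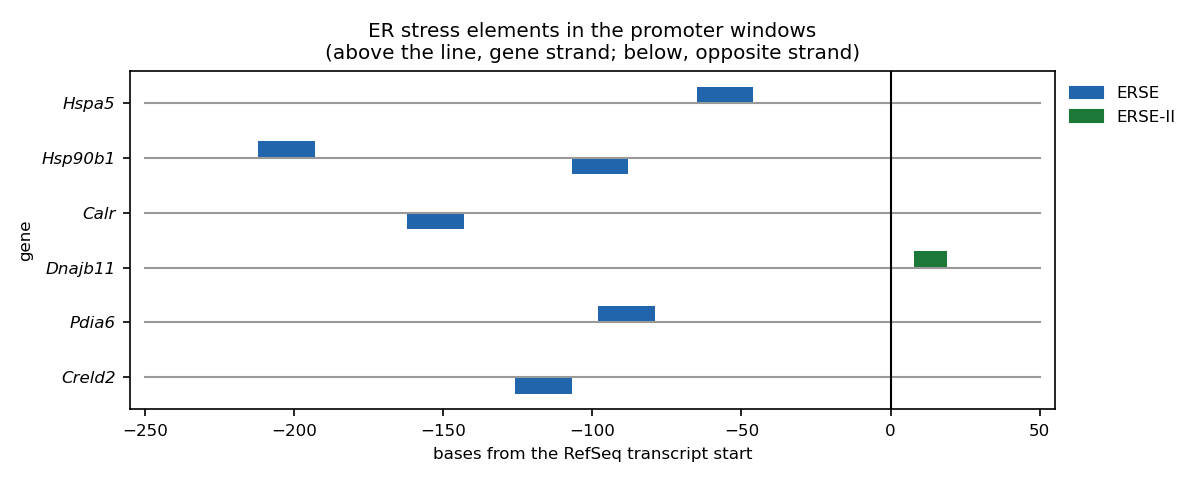
Positions of the ER stress elements in the promoter windows of 6 genes, in bases from the RefSeq transcript start; bars above a line are on the gene strand and bars below it on the opposite strand. All ERSE sites begin between base -212 and base -65, Hsp90b1 has 2, and the ERSE-II site of Dnajb11 begins at base 8.

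These were abundant transcripts in microglia. Per kilobase of exon, Hsp90b1, which encodes the ER form of Hsp90 (GRP94), had the highest level in each group, for example 32610 ± 1795 normalized counts per kb (SD, n = 4) in WT mice of 7 months. Calr, the calcium-binding lectin chaperone calreticulin, followed at 30150 ± 1323, then Pdia3 at 23620 ± 1382 and Hspa5 at 15490 ± 530. Pdia6 stood at 5564 ± 411, and Sdf2l1, Pdia4, Manf and Dnajb11 lay between 3820 and 2131. Creld2 had the lowest level per kb, 954 ± 42.6. The order of the group means was the same in all 4 groups, though Hsp90b1 and Calr overlapped between mice in each group, as did Manf and Dnajb11. Together the 10 genes took between 0.559% and 0.6% of all normalized counts in WT mice of 7 months and between 0.640% and 0.770% in transgenic mice of that age. At 10 months the shares were 0.864% to 1.08% in WT mice and 0.618% to 0.745% in transgenic mice. At neither age did the shares of the genotypes overlap.

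At 7 months, 5 of the 10 genes were higher in transgenic than in WT microglia, namely Creld2, Pdia4, Hspa5, Hsp90b1 and Pdia6, by 1.22- to 1.38-fold (limma on log2(normalized count + 1), Benjamini-Hochberg adjusted p under 0.05 over 13887 genes). Over all genes tested, 2.23% were called higher at this age. None of the 10 was called lower by limma, edgeR or DESeq2, and none had an unadjusted p under 0.05 in that direction. The other 5 also had means above WT, and the median difference of the 10 was 0.26 on the log2 scale against 0.00093 for all genes. For the same 5 genes every transgenic mouse lay above every WT mouse, which was so for 3.55% of all genes. In bulk RNA, fewer cells of a type and less RNA per cell cannot be told apart.

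Among the chaperones, Hspa5 was 39736, 41088, 38966 and 42072 normalized counts in the 4 WT mice. In the 6 transgenic mice the lowest value was 48269, the median 52318 and the highest 65871. All transgenic mice thus lay above the WT mice, and 1 of them, replicate 3, was well above the rest. The means were 53677 ± 6510 (SD, n = 6) and 40465 ± 1384 (n = 4), a log2 difference of 0.40 ± 0.085 (SE, limma adjusted p = 0.0128). Hsp90b1 was 92670, 96856, 93971 and 84981 in WT mice. Its lowest, median and highest values in transgenic mice were 103188, 112556 and 125879, again without overlap (log2 difference 0.30 ± 0.076, limma adjusted p = 0.0337). Calr (log2 difference 0.15 ± 0.075, limma adjusted p = 0.273), Dnajb11, the J-domain partner of BiP also called ERdj3 (0.24 ± 0.085, adjusted p = 0.122), and Sdf2l1, a partner of Dnajb11 (0.13 ± 0.11, adjusted p = 0.512), did not pass the test. In all 3 the mice of the genotypes overlapped.

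Among the disulfide isomerases, Pdia4, also known as ERp72, was 6463, 7348, 7694 and 7049 in WT mice. In transgenic mice the lowest, median and highest values were 8673, 9459 and 10957. The genotypes did not overlap, and the means of 9585 ± 769 (n = 6) and 7139 ± 522 (n = 4) differed by 0.42 ± 0.076 on the log2 scale (limma adjusted p = 0.00480). Pdia6, or P5, was 11316, 12262, 13296 and 11533 in WT mice. Its transgenic values ran from 13420 through a median of 14935 to 15895, so the lowest transgenic mouse was just above the highest WT mouse (log2 difference 0.29 ± 0.074, limma adjusted p = 0.0337). Pdia3, or ERp57, which acts on glycoproteins held by calreticulin and calnexin, had means of 75323 ± 6607 and 65420 ± 3828 and did not pass the test (log2 difference 0.20 ± 0.078, limma adjusted p = 0.148).

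Creld2 and Manf encode secreted products of the unfolded protein response. Creld2 was 1219, 1352, 1318 and 1324 in WT mice, and its lowest, median and highest values in transgenic mice were 1668, 1763 and 1957. This was the largest difference among the 10 genes at this age, 0.46 ± 0.079 on the log2 scale (limma adjusted p = 0.00372), with the genotypes well apart. Manf overlapped between genotypes, at 5756 ± 569 against 5100 ± 398 (log2 difference 0.17 ± 0.085, limma adjusted p = 0.257). Creld2 and Pdia4 were called in all 18 alternative settings. Without WT replicate 1 they were the only genes of the 10 still called, and when 1 mouse among transgenic replicates 3, 5 and 6 and WT replicates 2 and 4 was left out the number called was 3.

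**Figure D2:**
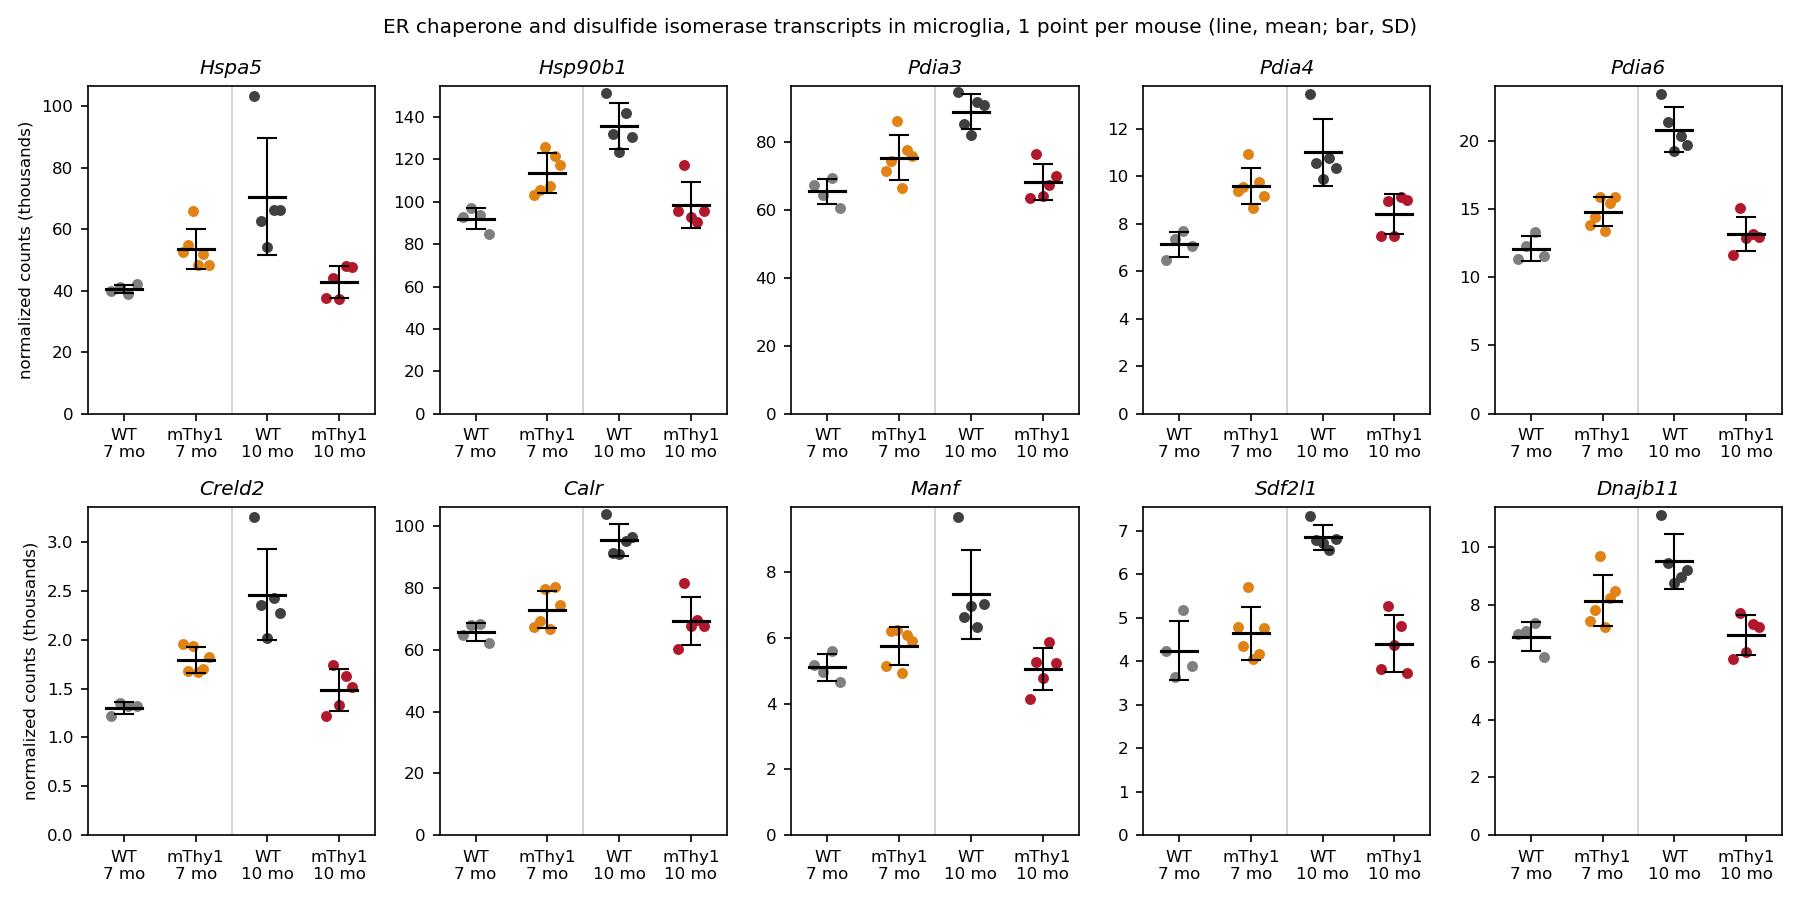
Normalized counts (axes from 0) of the 10 genes, 1 point per mouse, with the mean as a line and the SD as a bar; the gray rule separates the ages, which were normalized apart. WT mice of 10 months lie above all transgenic mice of that age in each panel, whereas at 7 months the transgenic mice lie above the WT mice for Hspa5, Hsp90b1, Pdia4, Pdia6 and Creld2.

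At 10 months the direction was opposite. All 10 genes were lower in transgenic microglia, where mean levels fell by 23.3% to 39.4% against WT, and all 10 passed the test (limma, adjusted p under 0.05 over 13627 genes), while 3.79% of all genes were called lower. For all 10, every transgenic mouse lay below every WT mouse, as was the case for 3.49% of all genes. The median difference was -0.50 on the log2 scale, against -0.0026 for all genes. The differences ran from -0.38 for Pdia3 to -0.72 for Creld2.

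Hspa5 was 37493, 44222, 37271, 47913 and 47637 in the 5 transgenic mice. In WT mice it was 103335, 62611, 54190, 66390 and 66331, so that the first WT mouse was far above the other 4. The means, 42907 ± 5250 and 70571 ± 18978 (n = 5 each), differed by -0.69 ± 0.15 (limma adjusted p = 0.0209), and by -0.54 ± 0.095 without that mouse (adjusted p = 0.00853). Hsp90b1 was 95662, 117304, 92758, 90271 and 95568 in transgenic mice and 151400, 132219, 123357, 141893 and 130813 in WT mice. The second transgenic mouse was the closest to the WT range, but the groups did not overlap (log2 difference -0.47 ± 0.081, limma adjusted p = 0.00489). Calr was 60362, 81806, 67781, 69565 and 67754 in transgenic mice and 103956, 91457, 91224, 95377 and 96596 in WT mice. Its difference of -0.47 ± 0.077 (limma adjusted p = 0.00393) again left no overlap, the closest mice being the second transgenic and the third WT mouse.

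Sdf2l1, which overlapped between genotypes at 7 months, was at 10 months 3817, 5275, 4373, 4800 and 3730 in transgenic mice and 7340, 6780, 6715, 6562 and 6807 in WT mice. The WT mice were close together and all above the transgenic mice (log2 difference -0.65 ± 0.090, limma adjusted p = 0.00133). Its partner Dnajb11 was 6958 ± 688 in transgenic and 9507 ± 945 in WT mice (log2 difference -0.45 ± 0.083, limma adjusted p = 0.00713).

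Pdia6 had the smallest p-value of the 10 genes. It was 11600, 15078, 12909, 13172 and 12949 in transgenic mice and 23419, 21358, 19241, 20388 and 19725 in WT mice. By the log2 difference of -0.67 ± 0.077 (limma adjusted p = 0.000381), the WT level was 1.59 times the transgenic level. The lowest WT mouse was well above the highest transgenic mouse. Pdia4 was 7480, 8978, 7473, 9118 and 9000 in transgenic mice against 13456, 10579, 9888, 10763 and 10353 in WT mice, where again the first WT mouse stood above the rest (log2 difference -0.39 ± 0.091, limma adjusted p = 0.0222). Pdia3, at 68290 ± 5333 and 88979 ± 5133, was also lower (log2 difference -0.38 ± 0.069, limma adjusted p = 0.00603).

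Creld2 was 1223, 1744, 1328, 1626 and 1513 in transgenic mice and 3256, 2357, 2018, 2425 and 2273 in WT mice. By the log2 difference of -0.72 ± 0.12 (limma adjusted p = 0.00548), the WT level was 1.65 times the transgenic level. Manf was 5056 ± 636 in transgenic mice and 7329 ± 1351 in WT mice, the first of which reached 9692 (log2 difference -0.53 ± 0.11, limma adjusted p = 0.0160). Without the first WT mouse all 10 genes were still called lower, with differences from -0.31 for Pdia4 to -0.62 for Pdia6, Sdf2l1 and Creld2. Without transgenic replicate 1, Hspa5 (limma adjusted p = 0.0536) and Pdia4 (0.0543) were no longer called, and without transgenic replicate 3 Pdia4 was not (0.0600).

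**Figure D3:**
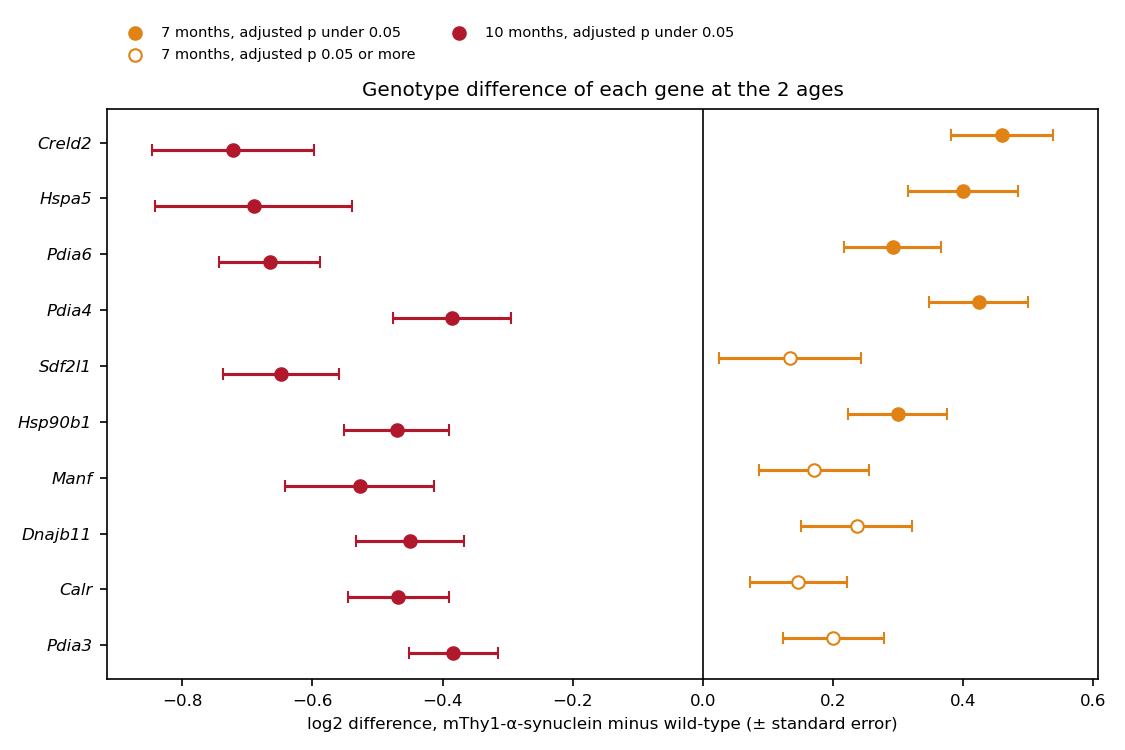
Log2 difference between mThy1-α-synuclein and WT mice for the 10 genes at 7 months (orange) and 10 months (red), with standard errors; filled points passed the test and open points did not. At 7 months all differences are above 0 (0.13 to 0.46) and 5 passed, and at 10 months all are below 0 (-0.38 to -0.72) and all 10 passed.

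The difference between the ages was itself tested, as the genotype difference at 10 months minus that at 7 months in a fit of all 20 mice. All 10 genes were called lower in this contrast, as were 2.62% of 14457 genes, with a median of -0.78 on the log2 scale, and of -0.73 with all 10 still called without the first WT mouse of 10 months. The largest was that of Creld2 (-1.18 ± 0.15, limma adjusted p = 0.000110), followed by Hspa5 (-1.09 ± 0.18, adjusted p = 0.00148) and Pdia6 (-0.96 ± 0.11, adjusted p = 1.65e-05). Pdia4 (-0.81), Sdf2l1 (-0.78) and Hsp90b1 (-0.77) followed, and Manf (-0.70), Dnajb11 (-0.69), Calr (-0.61) and Pdia3 (-0.58) had the smallest. Only 16 of 13484 genes tested at both ages (0.119%) were called higher at 7 months and lower at 10 months. Of these, 5 were Hspa5, Hsp90b1, Pdia4, Pdia6 and Creld2, and 4 belonged to the further ER gene lists, namely Hyou1, Erp44, Derl2 and Nfya. Without the first WT mouse of 10 months 12 of the 16 were still called at both ages, all 5 among them but neither Erp44 nor Derl2, and at 7 months Hyou1, Erp44 and Nfya were called in 9, 7 and 8 of 18 alternative settings. A difference above 0 at 7 months and below 0 at 10 months, without regard to the test, was found for all 10 genes and for 24.9% of all genes. Because the 10 genes and the lists were chosen with earlier results known, these counts are a description.

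The deposited values were scaled within each age, so levels of the ages were set side by side on size factors computed once over all 20 mice, a choice made after the data had been seen. On this scale WT mice of 10 months had the highest mean of the 4 groups for all 10 genes and WT mice of 7 months the lowest. For Creld2 the means were 1258 ± 56.3 in WT and 1729 ± 121 in transgenic mice at 7 months, and 2552 ± 478 in WT and 1542 ± 219 in transgenic mice at 10 months. For Calr they were 63554 ± 2816, 70354 ± 5790, 99115 ± 5080 and 72024 ± 7957 in the same order. The mean of WT mice of 10 months was 1.46 times (Pdia3) to 2.03 times (Creld2) that of WT mice of 7 months. The mean of transgenic mice of 10 months was 0.861 (Hspa5) to 1.02 times that of transgenic mice of 7 months. For 7 of the 10 genes every WT mouse of 10 months lay above every mouse of the other 3 groups, the exceptions being Hspa5, Pdia4 and Dnajb11. Transgenic mice of 10 months overlapped WT mice of 7 months for 8 of the 10 genes. No test was made across ages within a genotype, since age and handling cannot be told apart. The shares of all genes with these patterns were not counted, so the counts among the 10 genes are a description.

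The 10 genes also varied together from mouse to mouse within groups. With each group's mean removed, the 45 pairs had a median Pearson r of 0.705 over the 20 mice, and of 0.640 without the first WT mouse of 10 months (median Spearman rho 0.636). The genes were measured in the same libraries, and no r of pairs of other genes is set beside these values. The r is therefore given as a description. Hspa5 and Pdia4 had the highest r, 0.885, followed by Pdia6 and Calr (0.871) and by Pdia3 and Dnajb11 (0.870). Hspa5 and Sdf2l1 had the lowest, 0.317. Without the first WT mouse of 10 months the highest pair was Pdia3 and Dnajb11 (0.881), Hspa5 and Pdia4 had 0.820, and the lowest pair was Hsp90b1 and Manf (0.247). Against the mean of the other 9 genes, Dnajb11 had the highest r (0.940) and Sdf2l1 the lowest (0.606), while without that mouse the lowest was Hspa5 (0.621, against 0.633 for Sdf2l1). Among 14447 genes, Rpn1, a subunit of the oligosaccharyltransferase that adds N-glycans in the ER, was the gene outside the group with the highest r to its mean (0.903, and 0.909 without that mouse). The next, from 0.855 down to 0.820, were Hnrnpf, G3bp1, Pa2g4, Grb2, Pak1ip1, Dnajc3, Metap2, Agpat5 and Idh3a. Of these 10, 3 remained among the 10 highest without the first WT mouse of 10 months and 1 remained at each age alone. The lowest were Armcx1 (-0.873), Nbeal2 (-0.843) and A830052D11Rik (-0.842).

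**Figure D4:**
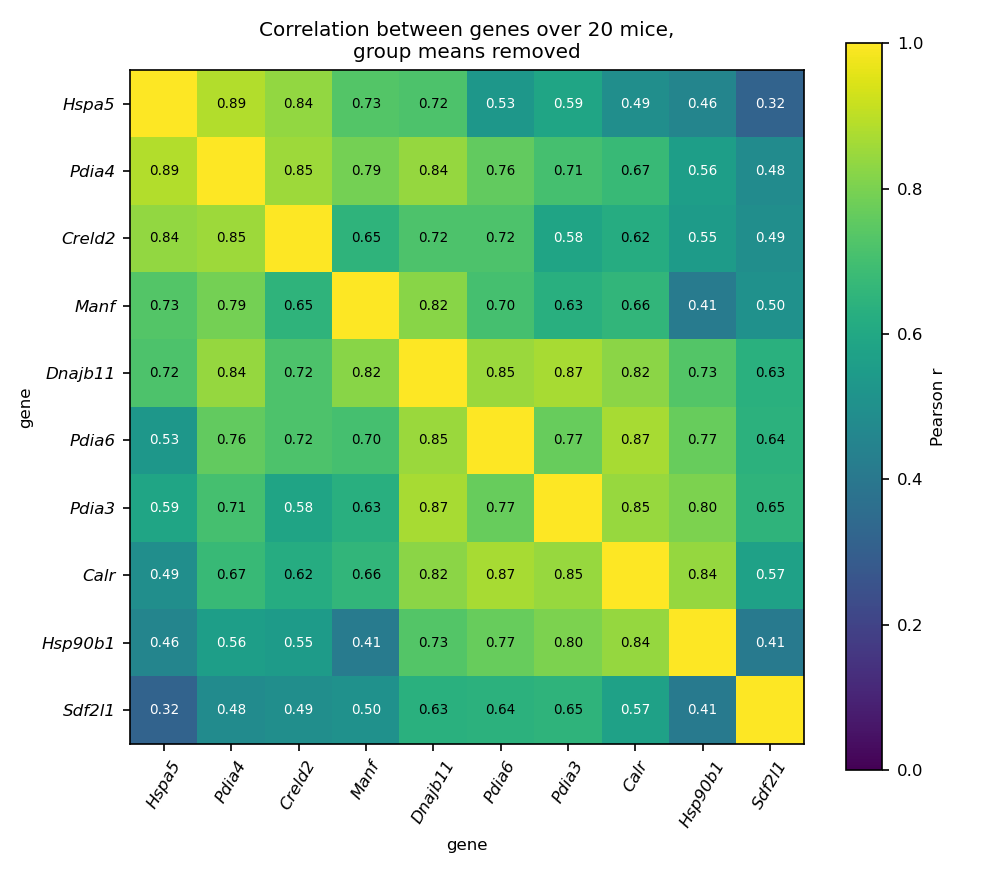
Pearson r between the 10 genes over 20 mice after each group's mean was removed (color scale 0 to 1; each number is the r of a pair). Values run from 0.317 for Hspa5 and Sdf2l1 to 0.885 for Hspa5 and Pdia4, and Dnajb11 is above 0.6 with each of the other 9.

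Further genes of the pathway were read from 6 lists of ER genes without the 10. In the lists below, rose and fell mean higher and lower in transgenic than in WT mice of the same age, not a change with age. At 7 months, 11 of 137 tested genes were called higher (8.03%, against 2.23% of all genes) and 2 lower (1.46%, against 2.70%). At 10 months, 2 of 135 were called higher (1.48%, against 3.88%) and 15 lower (11.1%, against 3.79%). For the difference between ages, 25 of 138 were called lower (18.1%, against 2.62% of all genes) and none higher by limma (against 3.74%). At an unadjusted p under 0.05, 4 were higher in this contrast, and edgeR and DESeq2 also called none. Without the first WT mouse of 10 months, 8 of 135 were called lower and 1 higher at that age. With the cytosolic heat shock and immediate early lists described last added, 13 calls at 7 months became 1 to 7 without any 1 of transgenic replicates 1, 2 and 3 or of the 4 WT mice. The 28 calls at 10 months became 13 to 18 without any 1 of transgenic replicates 1, 2, 3 and 5 or WT replicates 2 and 5.

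Of 23 other ER chaperones tested, 2 were called higher at 7 months (median of the list 0.06), and 2 of 22 were called lower at 10 months (median -0.12). Hyou1, an exchange factor for BiP, rose at 7 months (0.28 ± 0.075, limma adjusted p = 0.0427) and fell at 10 months (-0.55 ± 0.11, adjusted p = 0.00869). Hspa13, another Hsp70 of the ER, rose at 7 months (0.43 ± 0.11, limma adjusted p = 0.0402, called in 8 of 18 alternative settings). Cnpy4 fell at 10 months (-0.37 ± 0.080, limma adjusted p = 0.0140). Canx, the membrane-bound relative of calreticulin, was at 0.06 at 7 months and at -0.08 at 10 months (limma adjusted p = 0.660 and 0.582).

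Of 23 other thiol oxidoreductases, 4 were called higher at 7 months (list median 0.15) and 2 lower at 10 months (list median -0.06). Pdia5 (0.43 ± 0.10), Tmx3 (0.39 ± 0.091) and Tmx1 (0.41 ± 0.11), all of the disulfide isomerase family, rose at 7 months. They were called in 14, 14 and 9 of 18 alternative settings. Erp44, which retrieves secretory proteins to the ER, rose at 7 months (0.31 ± 0.084) and fell at 10 months (-0.27 ± 0.070, not called without the first WT mouse, limma adjusted p = 0.0663), and Txndc12 fell at 10 months (-0.24 ± 0.061). P4hb, the founding disulfide isomerase, was at 0.11 and -0.13 and did not pass the test at either age (limma adjusted p = 0.446 and 0.397).

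Among 20 sensors and transcription factors of the unfolded protein response, 1 was called higher at 7 months, and 4 were lower and 1 higher of 19 at 10 months (2 lower and 0 higher by limma without the first WT mouse of 10 months, when Xbp1, Atf6b and Mbtps2 were not called). Xbp1 was 6733 ± 212 in WT and 7752 ± 570 in transgenic mice at 7 months (log2 difference 0.20 ± 0.070, limma adjusted p = 0.112), and fell at 10 months (-0.41 ± 0.12, adjusted p = 0.0457). Ddit3, the stress factor CHOP, was at 0.04 ± 0.14 at 7 months and fell at 10 months (-0.50 ± 0.10, limma adjusted p = 0.0120). Nfya, a subunit of the factor that binds the CCAAT part of the ER stress element, was just inside the threshold at 7 months (0.26 ± 0.073, limma adjusted p = 0.0499, called in 8 of 18 alternative settings, where adjusted p ran from 0.0141 to 0.166) and fell at 10 months (-0.29 ± 0.064, adjusted p = 0.0155). Atf6b fell at 10 months (-0.28 ± 0.076) and Mbtps2, a protease that cuts Atf6, rose (0.29 ± 0.079). Atf6 did not pass the test at either age (0.04 and 0.12, limma adjusted p = 0.738 and 0.457).

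ER-associated degradation, which removes misfolded proteins, had 4 of 22 genes called higher at 7 months (list median 0.17) and 1 higher and 1 lower at 10 months (list median -0.04). Derl2 rose at 7 months (0.37 ± 0.083) and fell at 10 months (-0.32 ± 0.091, not called without the first WT mouse, limma adjusted p = 0.0984), and Rnf139 (0.28 ± 0.073) and Herpud1 (0.30 ± 0.079) rose at 7 months. Of 18 alternative settings, Derl2 was called at 7 months in 15, Rnf139 in 11 and Herpud1 in 6. Edem1, which takes mannose from misfolded glycoproteins, rose at 10 months (0.36 ± 0.068, limma adjusted p = 0.00756). Of 30 translocon, signal peptidase and N-glycosylation genes, 2 were called lower at 7 months. These were the small subunits Sec61g (-0.44 ± 0.089) and Ost4 (-0.33 ± 0.088), called in 17 and 8 of 18 alternative settings. At 10 months 5 of the 30 were called lower, among them Spcs2 (-0.31 ± 0.059), Mlec (-0.27 ± 0.060), Prkcsh (-0.32 ± 0.075) and Rpn1 (-0.29 ± 0.075). Of 19 retrieval and export genes, none was called at 7 months by limma, edgeR or DESeq2 (3 were higher at an unadjusted p under 0.05), and Lman2 was called lower at 10 months (-0.25 ± 0.063). Without the first WT mouse of 10 months, neither Lman2 (limma adjusted p = 0.0577) nor Rpn1 (0.0663) was called at that age.

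Outside the ER, the cytosolic heat shock list of 19 genes also held the mitochondrial Hspd1 and Hspe1. None of the 19 was called at 7 months by limma, edgeR or DESeq2 (4 were higher and 2 lower at an unadjusted p under 0.05). At 10 months 9 were called lower (list median -0.33). These included Stip1 (-0.82 ± 0.13, limma adjusted p = 0.00392), Fkbp4 (-0.55 ± 0.095, adjusted p = 0.00484) and Hsp90ab1 (-0.60 ± 0.12, adjusted p = 0.0110). The count was 8 without the first WT mouse of 10 months and 4 without transgenic replicate 2 of that age. Of 20 immediate early genes, which respond to handling and dissociation, none was called at 7 months by limma or edgeR and 2 by DESeq2 (5 at an unadjusted p under 0.05), and at 10 months Fosl2 (-0.71 ± 0.13) and Fosb (-0.67 ± 0.18) were called lower. The list's summed level ran from 110522 to 143417 in transgenic and from 109930 to 148376 in WT mice at 10 months, and its part in the results was not tested.

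Of 14 tested genes outside the 10 with an ER stress element in the promoter window, none was called at 7 months by limma and 1 higher by edgeR and by DESeq2 (4 were higher and 2 lower at an unadjusted p under 0.05, list median 0.23). At 10 months 3 were called higher (Pan2, Xlr3c and Xlr3b, named here after their values were seen) and none lower by any of the 3 tools (2 at an unadjusted p under 0.05, list median -0.07). These stand against 2.23% of all genes called higher at 7 months, and 3.88% higher and 3.79% lower at 10 months. The 5 genes of the 10 in which the element was found were all called lower at 10 months, and 4 of them were called higher at 7 months. Manf was not searched. The 10 were chosen with earlier results known, and the 2 sets were not tested against each other.

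**Figure D5:**
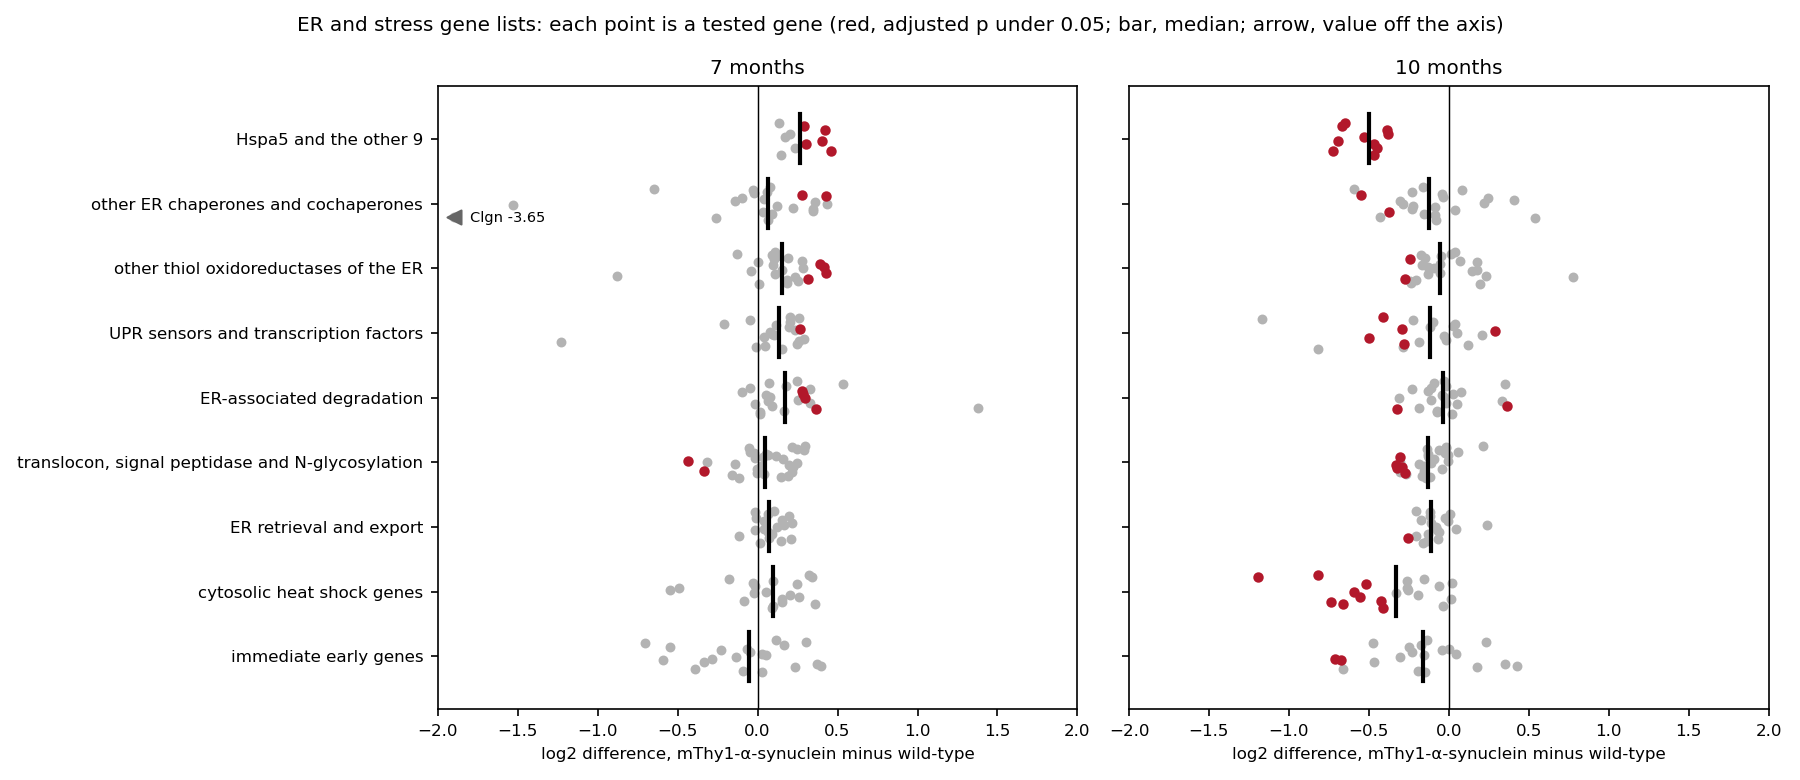
Log2 difference between mThy1-α-synuclein and WT mice for each tested gene of the ER and stress lists at 7 months (left) and 10 months (right); red points passed the test, black bars are list medians, and an arrow marks Clgn, at -3.65 beyond the axis. The 10 genes in the top row lie to the right of 0 at 7 months and to the left at 10 months. In the cytosolic heat shock list 9 of 19 genes are red at 10 months.

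Markers of other cells moved with genotype as well, and their part in the results was not tested. At 7 months 6 of 10 neuron markers, 3 of 8 astrocyte markers, 3 of 6 tested oligodendrocyte markers and 2 of 6 endothelial markers were called lower in transgenic mice, and 1 astrocyte marker, Slc1a3, was called higher. The summed neuron markers ran from 286 to 511 normalized counts in transgenic and from 857 to 1578 in WT mice. The summed oligodendrocyte markers ran from 7845 to 10168 and from 12714 to 18103, and the astrocyte sum from 10269 to 13118 and from 13861 to 17885. At 10 months these 3 sums overlapped between genotypes. Border macrophage markers summed to between 13355 and 17223 in transgenic and between 17889 and 22007 in WT mice of 10 months, with 3 of 6 called lower (1 without the first WT mouse). Neutrophil and monocyte markers summed to between 50531 and 130614 and between 110736 and 267122, with 2 of 7 called lower (0 by limma without that mouse). Lymphocyte and plasma cell markers, among them those of antibody-secreting cells rich in ER, summed to between 696 and 857 in transgenic and between 784 and 1124 in WT mice of 10 months. Of the 11 genes in this list, 7 passed the filter and were tested at that age. The 2 called lower, Cd3d and Nkg7, are not markers of antibody-secreting cells, whose part was not tested. No marker of these lists was at 0 in every mouse of a group. Microglia markers were called higher at 10 months for 4 of 12 genes, a count that was 0 by limma without the first WT mouse and 1 without transgenic replicate 2, and at 7 months for 1.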

How the data were processed

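The deposited values were normalized counts (a signal in units of reads divided by a size factor), which the authors made with Trim Galore 0.6.7, HISAT2 2.2.1 on mm10, featureCounts and DESeq2 1.44.0 from paired-end, poly(A)-selected libraries. Size factors recomputed within each age equalled those in the files, so the ages had been scaled separately. Multiplied back, 100% of values were whole reads (tolerance 0.01), and libraries held 33404096 to 77806399 reads. Normalized counts were tested on log2(value + 1) with limma 3.58.1 (R 4.3.3, trend and robust, Benjamini-Hochberg over all genes tested), each age apart, for genes with at least 10 in at least 4 (7 months) or 5 mice (10 months). The difference between ages was fitted over all 20 mice, with the same minimum in 4. Fold changes are on the log2(value + 1) scale.

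The members and lists were chosen with earlier results of these data known. Named from each list were up to 3 genes per age and direction by smallest p, Xbp1, Atf6, Ddit3, Herpud1, Hyou1, P4hb and Canx always, and the 10 genes most and 3 least like the members. Levels per kb used the exon length of the RefSeq-paired GENCODE transcript, with promoters from RefSeq (9 of 10 genes matched). Protein sequences were not used here. Alternatives were edgeR 4.0.16 and DESeq2 1.42.0 on the recovered reads, other pseudocounts (0.5 and 5), no filter, TMM scaling, a replicate block, 1 fit of all mice and leaving out each mouse. In simulated 10-month data every gene had the same dispersion, which was set and not taken from these data. There limma recovered 95% of genes changed by 1 on the log2 scale and 47% of those changed by 0.5. These shares are not the power in the real data. No duplicate libraries were found (lowest chi-square per gene within groups 24.7). Mice are separate animals, and p-values set the difference of group means against the spread between mice.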

Additional observations from a re-analysis of the deposited data

Results flagged for a closer look

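Among WT mice of 10 months, replicate 1 was far from the other 4 for 3 genes, with 103335 normalized counts of Hspa5, 13456 of Pdia4 and 9692 of Manf. In transgenic mice of 10 months, replicate 2 was far from the others for Hsp90b1 (117304). These are 4 of 40 groups of values examined for a mouse far from the others, and chance gives about 1 in 20.

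The genotype difference was not the same at both ages for any of the 10 genes, by the test of the difference itself (limma, all adjusted p under 0.05). The difference at 10 months minus that at 7 months, on the log2 scale, was -1.09 for Hspa5, -0.77 for Hsp90b1, -0.61 for Calr, -0.69 for Dnajb11 and -0.78 for Sdf2l1 among the chaperones. It was -0.58 for Pdia3, -0.81 for Pdia4 and -0.96 for Pdia6 among the isomerases, and -1.18 for Creld2 and -0.70 for Manf. Age cannot be told apart from handling.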

How the results depend on the processing

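No direction of the 10 genes changed under any alternative. At 7 months the number called, 5, was 3 with the replicate block and 2 to 5 with each mouse left out in turn. Hspa5 was called in 16 of 18 settings, Hsp90b1 and Pdia6 in 10 each, and Creld2 and Pdia4 in all. At 10 months 8 to 10 were called with each mouse left out. The difference between ages was called for all 10 genes in 27 settings, except for Manf with the block (limma adjusted p = 0.0603). The number of genes called in the 8 lists at 7 months, 13, was 23 with DESeq2, 6 with no filter on low values and 4 with the block, and 1 to 18 with each mouse left out (1 without WT replicate 1). At 10 months the lists' 28 calls became 13 to 32 with each mouse left out, 13 without transgenic replicate 1. The cause of these changes was not tested, and leaving out a mouse leaves fewer samples.

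Replicate numbers did not pair the mice, since same-numbered mice correlated by -0.127 to 0.026 at 7 months and -0.026 to 0.046 at 10 months. With the replicate block, Hsp90b1 (limma adjusted p = 0.135) and Pdia6 (0.113) were not called at 7 months, nor Manf at 10 months (0.0516). In 1 fit of all 20 mice Hspa5 was not called at 7 months (limma adjusted p = 0.0604). The median correlation of the pairs was 0.593 at 7 months alone and 0.774 at 10 months alone. Ddit3 at 7 months, which did not pass the test, turned from 0.04 to -0.03 with the block, and ran from -0.052 to 0.151 with each mouse left out, below 0 without transgenic replicate 5 or WT replicate 3. The lowest read count of the 10 genes in any mouse was 1116, for Creld2.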
